A study of Mus musculus with 10 samples.

Results

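Cadherins, catenins and the immunoglobulin and contactin families of adhesion molecules were followed in visual cortex of young wild-type C57Bl6 mice after the loss of one eye. The genes were chosen by name: every probe set with a single gene symbol that starts with Cdh (other than Cdh5), Pcdh, Ctnn, Nrxn, Nlgn or Cntn, or that is Ncam1, Ncam2, L1cam, Chl1, Nrcam or Nfasc. This gave 31 genes with 44 probe sets among 12422 non-control probe sets, and where a gene had several, the one with the highest average signal over the 10 arrays stood for it. A further 8 probe sets carry the symbols of several protocadherins at once and were left out. The rule found 0 probe sets of a neurexin or neuroligin and none of Nfasc, so the data cover adhesion through cadherins, catenins, contactins and the Ncam and L1 families, and not the neurexin and neuroligin pair at the synapse.

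The animals lost an eye by enucleation at postnatal day 14, and visual cortex was collected at postnatal day 18, 4 days later. The 5 deprived samples came from the hemisphere opposite the removed eye, which loses most of its visual input because most mouse optic nerve fibres cross. The 5 non-deprived samples came from the hemisphere on the side of the removed eye, and 1 array was hybridised per sample. Both groups therefore came from operated animals, and cortex of intact animals was not analysed here. The labels describe pooled samples and name 4 mice without saying how tissue was divided, so the p-values measure the spread between these samples, which may be partly technical. Differences are deprived minus non-deprived on the log2 scale throughout.

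Cadherins are calcium-dependent membrane proteins that bind the same or related cadherins on the facing cell, and in cortex they line the adhesive borders of synapses. Their tails bind beta-catenin and p120-catenin, and alpha-catenins couple that complex to actin; beta-catenin also carries Wnt signals to the nucleus. Ncam and L1 proteins belong to the immunoglobulin superfamily and act in axon growth and synapse adhesion, and polysialic acid on Ncam declines in mouse visual cortex after eye opening. Contactins are anchored to the membrane by lipid, and Cntn1 pairs with the contactin-associated protein Cntnap1 at the junction of axon and myelin.

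Of the 31 adhesion genes, 21 passed the filter on low signal and 10 did not. The filter kept probe sets whose mean log2 signal reached the 40th percentile, a signal of about 115. Among the 21, the limma fit called 0 genes at an adjusted p under 0.05, as it called 0% of all 7453 tested probe sets. At an unadjusted p under 0.05 it gave 0 adhesion genes higher and 0 lower in deprived cortex, where 2.43% of all tested probe sets were higher and 2.36% lower (4.79% in either direction). The 5 deprived and 5 non-deprived arrays overlapped for each of the 21 genes; of all tested probe sets, 0.953% had groups that did not overlap. The estimates were above 0 for 11 genes and below 0 for 10, with a median of 0.028 beside 0.0066 over all tested probe sets. Without deprived replicate 2 or 3 the median of the 21 genes was -0.0032 or -0.00054, so its sign rests on single arrays. Scaling the arrays to a common median shifted both medians alike, to -0.0037 and -0.025. They ran from -0.11 (Cdh6) to 0.25 (Chl1). A tissue measurement of this kind cannot tell fewer cells of a type from less RNA per cell.

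**Figure D1:**
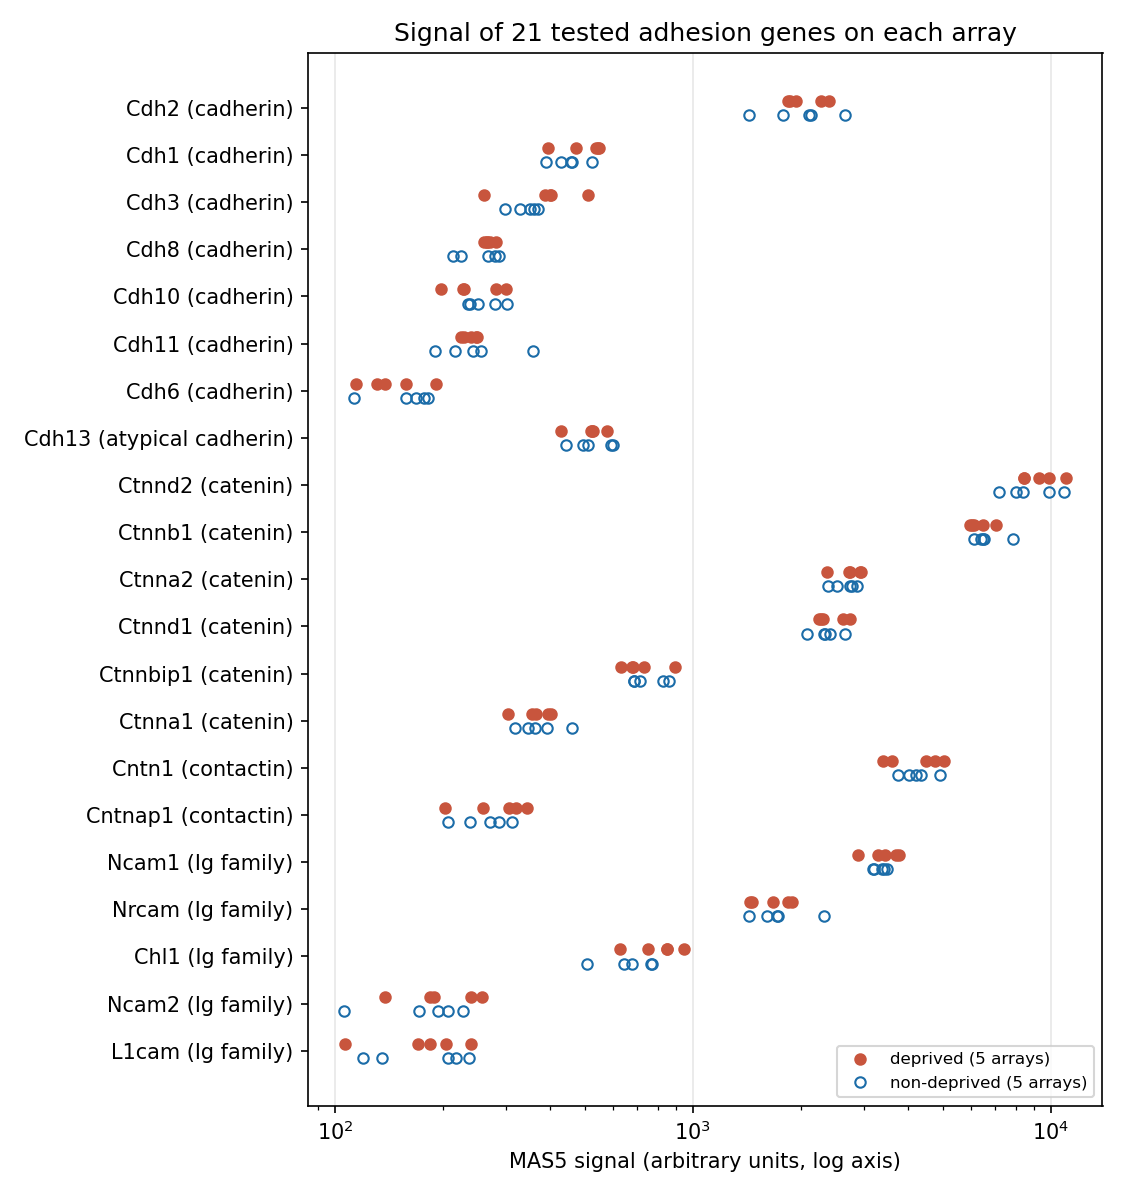
MAS5 signal of the 21 tested adhesion genes (log axis, arbitrary units), with 1 point per array: filled for the 5 deprived and open for the 5 non-deprived arrays. The points of both groups overlap for each gene, and signals of different genes come from different probes and are not comparable in height.

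The intervals show how large a difference these arrays would still allow. For all 21 genes the 95% interval of the fit lay within 2-fold in either direction, and for 20 of them it lay within 1.5-fold. Over all tested probe sets these shares were 98% and 85.8%. The exception at 1.5-fold was Ncam2, with an interval from -0.28 to 0.59. Within 1.25-fold lay 8 of the 21 (38.1%, beside 35.7% of all tested probe sets): Ctnnb1, Ctnna1, Ctnna2, Ctnnd1, Ctnnbip1, Cdh13, Cntn1 and Ncam1. A p that misses the threshold does not show equal levels, and the intervals give the range that remains.

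**Figure D2:**
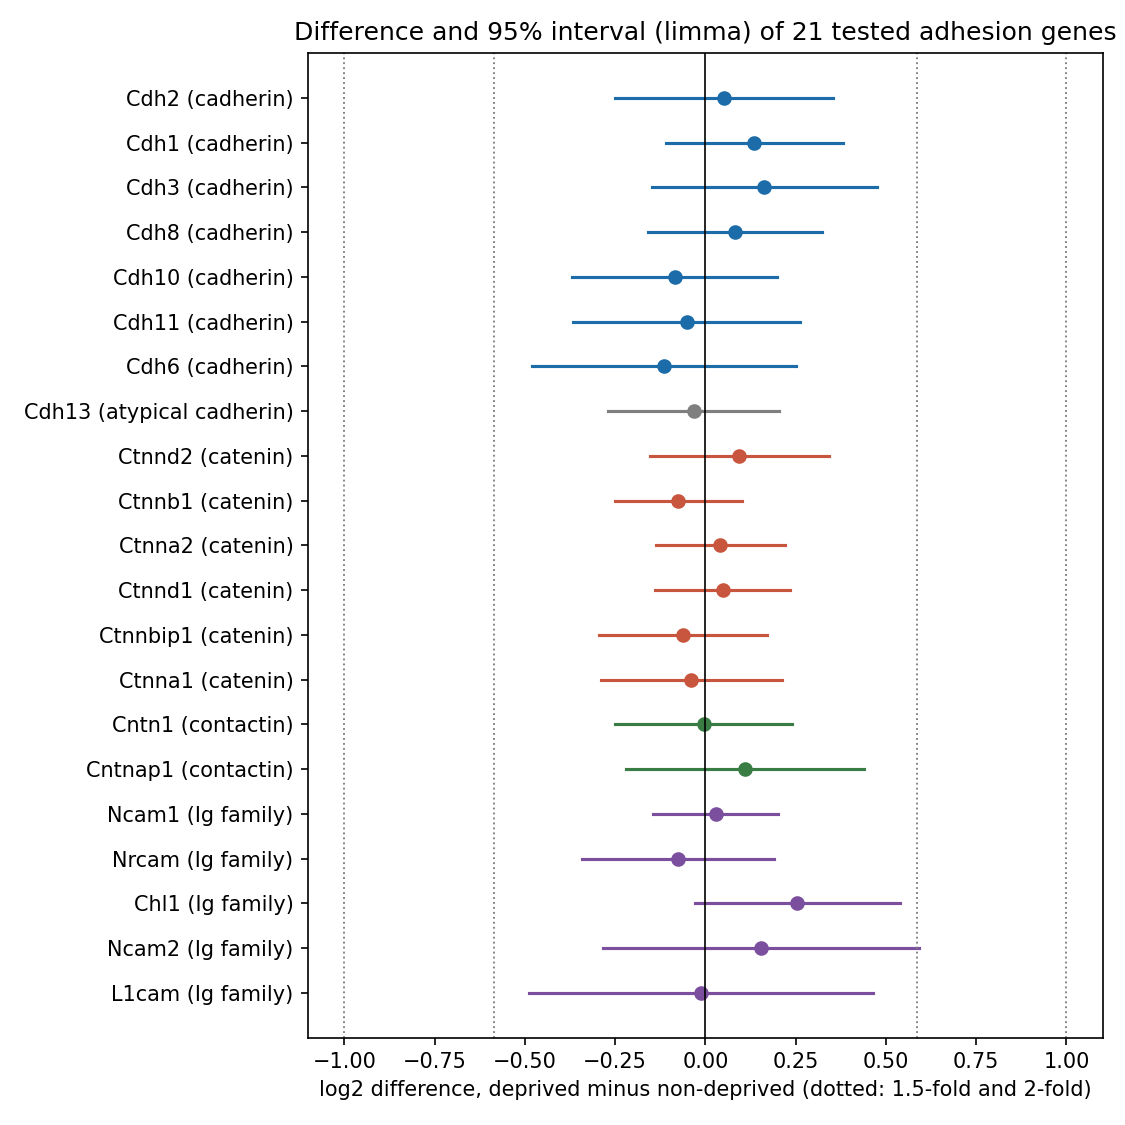
Difference between deprived and non-deprived cortex (log2, points) with its 95% interval from limma (lines) for the 21 tested adhesion genes, coloured by family; dotted lines mark 1.5-fold and 2-fold. Each interval contains 0, and the one that crosses a 1.5-fold line belongs to Ncam2.

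Type I and type II cadherins, the adhesive receptors themselves, had 10 measured genes, of which 7 were tested; 4 estimates lay above 0 and 3 below. Cdh2, N-cadherin, is the main classical cadherin of synaptic junctions. Its signals were 1839.5, 2395, 2282, 1947 and 1869.8 in deprived replicates 1 to 5 and 2105, 2657, 1787, 1432 and 2133 in non-deprived replicates 1 to 5. The non-deprived arrays enclosed the deprived ones on both sides, and the difference was 0.052 ± 0.14 (SE), with an interval from -0.25 to 0.35. Cdh1, E-cadherin of epithelia, gave 547, 535, 472, 395 and 544 against 459.5, 389.8, 427, 524 and 456, in the same order of replicates. Here 3 of 5 deprived arrays lay above the highest non-deprived one and the difference was 0.14 ± 0.11 (SE). Cdh3, P-cadherin, is the chromosomal neighbour of Cdh1, with 0 protein-coding genes between them in RefSeq's GRCm38 annotation. It gave 402, 262, 509, 399 and 385 in deprived and 369.5, 350, 329.5, 359.7 and 299 in non-deprived cortex. Deprived replicate 2 was the lowest of all 10 arrays while the other 4 deprived arrays were the highest 4, so the mean of 391 ± 87.7 against 342 ± 27.9 (SD, n = 5 each) hides 1 discordant array. The Cdh3 difference was 0.16 ± 0.15 (SE) with limma's unadjusted p at 0.282. Single arrays moved it both ways: it was 0.29 (unadjusted p 0.0223) without deprived replicate 2, the low array just named, and 0.064 (unadjusted p 0.648) without deprived replicate 3, the highest.

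The type II cadherins, which mark subsets of neurons and cortical areas, gave small differences in both directions. Cdh8 had signals of 260.3, 271, 266, 267 and 283 in deprived cortex, a narrow range, against 281, 288, 269, 226 and 213 in non-deprived cortex, a difference of 0.082 ± 0.11 (SE). Cdh11, its neighbour with 0 protein-coding genes between, was also narrow in deprived cortex, at 248, 225, 250, 229 and 241. Its non-deprived values of 243, 357, 191, 217 and 256 were spread by replicate 2, the highest of the 10, and the difference was -0.051 ± 0.15 (SE). Cdh6 and Cdh10 flank Cdh9 on the chromosome and gave -0.11 ± 0.17 (SE) and -0.085 ± 0.13 (SE). For Cdh6, 4 of 5 non-deprived arrays lay between 158 and 183 and the fifth at 113, below all deprived arrays. Cdh13, T-cadherin, lacks a cytoplasmic tail and is lipid-anchored; its signals were 514 ± 53.9 against 527 ± 66.9 (SD, n = 5 each), a difference of -0.033 ± 0.11 (SE).

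Catenins, the cytoplasmic partners, had 6 of 7 genes tested, with estimates from -0.075 to 0.094. The median SD within groups was 0.15 on the log2 scale, beside 0.20 over all tested probe sets. Ctnnb1, beta-catenin, gave 6006, 5932, 7019, 6457 and 6094 in deprived and 6106, 6500, 7817, 6371 and 6455 in non-deprived cortex. Non-deprived replicate 3 stood above the rest, and the difference of -0.075 ± 0.082 (SE) shrank to -0.015 without it. Ctnnd2, delta-catenin of neurons, gave 8403, 9282, 11055, 9853 and 8397 against 7148, 9882, 10894, 7987 and 8364, read by a probe set of relaxed design rules. Replicate 3 was the highest array of both groups, and the difference was 0.094 ± 0.12 (SE). Ctnnd1, p120-catenin, which holds cadherins at the membrane, had 2448 ± 230 against 2366 ± 204 (SD, n = 5 each). Ctnna2, the neuronal alpha-catenin, gave 2748, 2949, 2934, 2734 and 2365 against 2749.6, 2874, 2390.2, 2534 and 2779, a difference of 0.042 ± 0.084 (SE). Ctnna1, its epithelial relative, gave -0.039 ± 0.12 (SE). Ctnnbip1, which keeps beta-catenin from its nuclear partners, had 722 ± 100 against 753 ± 82.7 (SD, n = 5 each) and a difference of -0.062 ± 0.11 (SE).

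**Figure D3:**
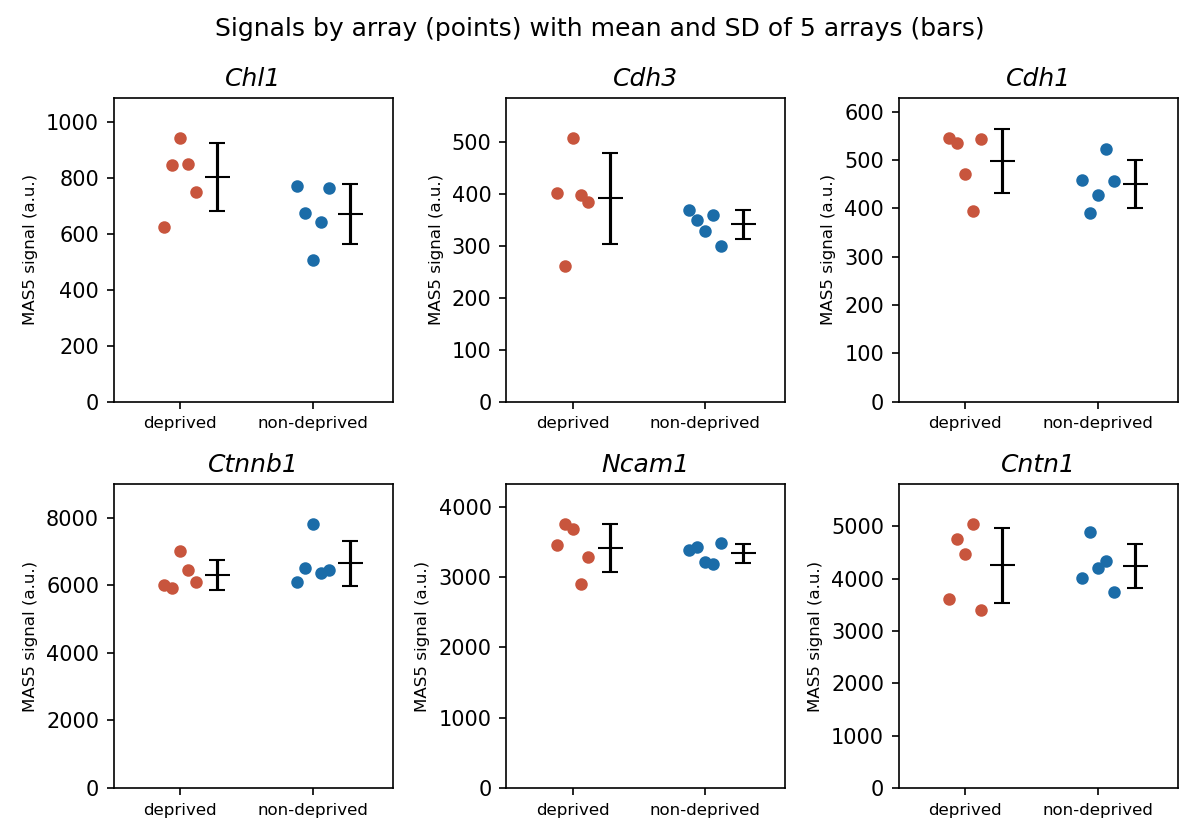
Signals on each array (points; left to right, replicates 1 to 5) with the mean and SD of 5 arrays beside them, on axes that start at 0, for Chl1, Cdh3, Cdh1, Ctnnb1, Ncam1 and Cntn1. In Chl1, Cdh3 and Cdh1 most deprived arrays sit high but at least 1 falls among or below the non-deprived arrays; in Ctnnb1 non-deprived replicate 3 stands alone at 7817.

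The promoters of adhesion genes were searched for the letters of sites bound by factors that neuronal activity induces or activates. RefSeq's table (GRCm38.p6) holds promoters of 300 bases, 250 before and 50 after a gene's start, for 20 of the 31 genes, 13 of them tested, in 27 entries. On both strands, TGANTCA (AP-1) was in 2 of the 27 (7.41%, beside 7.81% of all 32851 promoters), of Cntn4 and Ctnnbip1. TGACG, the core of the cAMP response element, was in 4 (14.8%, beside 20.8%), of Cdh8, Cntn1, Ctnnb1 and Ctnnd1. TGACGTCA, the full element, which contains that core, was in 0 (beside 1.79% of all), and GCGGGGGCG (Egr factors) in 1 (3.7%, beside 2.91%), of Ncam2. For each motif with a match, the promoter of 1 tested gene is shown, with the matched letters in capitals on the gene's strand. Ctnnbip1 and Ctnnb1 have 2 entries each in the table, of which the one with a match is shown. The 2 matches of Ctnnb1 read CGTCA and the match of Ncam2 reads CGCCCCCGC, which are the reverse complements.
Ctnnbip1, chr4:149517991-149518290, plus strand: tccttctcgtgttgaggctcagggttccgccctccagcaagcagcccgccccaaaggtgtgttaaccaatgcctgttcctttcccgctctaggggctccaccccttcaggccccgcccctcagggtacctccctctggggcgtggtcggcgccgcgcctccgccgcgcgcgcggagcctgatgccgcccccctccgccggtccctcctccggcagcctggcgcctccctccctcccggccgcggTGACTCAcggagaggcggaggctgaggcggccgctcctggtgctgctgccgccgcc
Ctnnb1, chr9:120933328-120933627, plus strand: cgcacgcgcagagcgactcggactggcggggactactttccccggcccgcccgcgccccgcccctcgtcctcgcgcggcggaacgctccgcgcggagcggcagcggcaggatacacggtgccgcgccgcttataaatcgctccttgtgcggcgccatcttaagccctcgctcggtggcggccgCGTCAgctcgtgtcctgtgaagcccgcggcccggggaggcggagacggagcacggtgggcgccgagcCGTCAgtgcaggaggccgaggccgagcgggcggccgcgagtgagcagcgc
Ncam2, chr16:81200447-81200746, plus strand: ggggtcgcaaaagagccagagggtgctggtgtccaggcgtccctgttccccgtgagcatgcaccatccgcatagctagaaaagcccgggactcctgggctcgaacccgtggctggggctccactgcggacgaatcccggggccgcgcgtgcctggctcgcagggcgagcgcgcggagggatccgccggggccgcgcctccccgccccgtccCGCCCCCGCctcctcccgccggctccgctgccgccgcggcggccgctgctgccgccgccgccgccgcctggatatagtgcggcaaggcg
The 3 genes had differences of -0.062, -0.075 and 0.15 in these arrays. A match of letters is a description of the sequence and shows no binding.

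The immunoglobulin family had 5 measured genes, all of them tested, with 3 estimates above 0 and 2 below. Chl1, the close homologue of L1 that acts in axon guidance and neuronal positioning, had the smallest p of the 21 adhesion genes. Its signals were 625, 846, 944, 848 and 750.3 in deprived replicates 1 to 5 and 769, 675, 505, 642 and 765 in non-deprived replicates 1 to 5. In deprived cortex 3 of 5 arrays lay above all non-deprived arrays, while deprived replicate 1 was the second lowest of the 10. The means were 803 ± 121 against 671 ± 108 (SD, n = 5 each), 19.3% higher on the fitted scale, and the difference was 0.25 ± 0.13 (SE). Limma gave an unadjusted p of 0.0752 and an adjusted p of 0.992 over all tested probe sets. Leaving out single arrays moved the difference from 0.16 (unadjusted p 0.211, without non-deprived replicate 3) to 0.34 (0.0196, without deprived replicate 1). The unadjusted p was 0.0476 without non-deprived replicate 1 and 0.0503 to 0.178 without any of the other 7 arrays. Chl1 lies between Cntn3 and Cntn4 in the annotation, both of which were too dim to test.

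Ncam1, the founding member of the family and the main carrier of polysialic acid, gave 3450.2, 3757, 3688, 2900 and 3291 in deprived and 3381, 3429, 3211, 3185 and 3486 in non-deprived cortex. Deprived cortex held both the highest and the lowest array, and the difference was 0.028 ± 0.081 (SE), with an interval from -0.15 to 0.20. Its relative Ncam2 gave 189.7, 185, 257, 138 and 239.9 against 171, 106, 194, 228 and 207, a difference of 0.15 ± 0.20 (SE). In this family the dim genes showed wider spread: the SD within groups was 0.36 on the log2 scale for Ncam2 and 0.40 for L1cam, against 0.11 for Ncam1. Among cadherins brightness did not order the spread in this way. There it was 0.25 for Cdh6, the dimmest tested gene, 0.13 for Cdh8 and 0.26 for the brighter Cdh2. L1cam, which guides growing axons, gave 241, 107, 171, 205 and 185 against 120.2, 135, 237, 219 and 207, so that its difference of -0.012 ± 0.22 (SE) has an interval from -0.49 to 0.46. Nrcam, which binds ankyrin at nodes and axon initial segments, gave 1843, 1464, 1890.2, 1680.2 and 1441 against 1722, 2326, 1609, 1439 and 1729. Its highest array was non-deprived replicate 2, and the difference was -0.075 ± 0.12 (SE).

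Of 4 contactins and contactin-associated proteins, 2 were tested. Cntn1, contactin 1, gave 3606, 4758, 4470.1, 5045 and 3408 in deprived and 4018, 4889.6, 4205, 4326 and 3745 in non-deprived cortex, with a difference of -0.0042 ± 0.11 (SE). The deprived arrays fell into 3 high and 2 low values and enclosed the non-deprived range. Cntnap1, Cntn1's partner at the junction of axon and myelin, gave 306, 344, 260.1, 322 and 203 against 272, 207, 238, 312 and 287, a difference of 0.11 ± 0.15 (SE). Summed signals of 7 measured oligodendrocyte markers ran from 19946 to 26132 in deprived and from 17854 to 25766 in non-deprived arrays.

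The 10 adhesion genes under the filter had mean signals from 18.8 to 72.0, well below the dimmest tested gene, Cdh6, at 153. They were Cdh4, Cdh9, Cdh15, Cdh16, Cdhr5, Pcdh7, Pcdh12, Ctnnal1, Cntn3 and Cntn4, so that 0 of the 2 protocadherins named by a probe set of their own were tested. Cdh15, Cdh16 and Cdhr5 are best known from muscle, kidney and intestine, and Pcdh12 from endothelium. No detection calls were used, so whether these probe sets exceed background was not tested. Cdh4, R-cadherin, is read by 3 probe sets, all dim. Its brightest gave 65.7, 65.0, 111, 46.5 and 68.1 in deprived and 58.0, 51.9, 67.6, 58.3 and 55.8 in non-deprived cortex. A second, of a group of similar sequences, gave 105, 78.5, 23.2, 66.8 and 62.7 against 37.3, 52.5, 48.0, 34.6 and 19.8. The dimmest gave 10.5, 6, 35.2, 10.3 and 34.6 against 4.8, 4.6, 2.3, 6.3 and 4.9, most of them under the added constant of 16. The 3 probe sets had means above those of non-deprived cortex, with differences of 0.20, 0.56 and 0.69 without the filter, and the groups overlapped in each. In that unfiltered fit the dimmest had a limma unadjusted p of 0.0115 and an adjusted p of 0.959. It was the only 1 of the 44 adhesion probe sets with an unadjusted p under 0.05, where 5.03% of all 12422 unfiltered probe sets had one.

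Genes with several tested probe sets gave a check within the gene. Ctnna2 had 3, with differences of 0.042 ± 0.084 (SE), -0.047 ± 0.11 (SE) and 0.14 ± 0.13 (SE) in order of falling signal, so the sign was not shared. The 2 tested probe sets of Ctnnd1 gave 0.048 ± 0.087 (SE) and 0.003 ± 0.12 (SE), and those of Ncam1 0.028 ± 0.081 (SE) and 0.048 ± 0.094 (SE). Further probe sets of Cdh3, Chl1, Ctnna1, Ncam2 and Ncam1 were too dim to test, at mean signals of 77.3, 36.1, 48.9, 20.3 and 14.5. Their differences were 0.31, -0.04, 0.059, -0.0067 and -0.16, in the same order of genes. Only that of Cdh3 had the sign of the gene's tested probe sets. For Chl1 the dim probe set had an SE of 0.29 and an interval from -0.68 to 0.59 in the fit without the filter. Its sign is therefore uncertain.

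**Figure D4:**
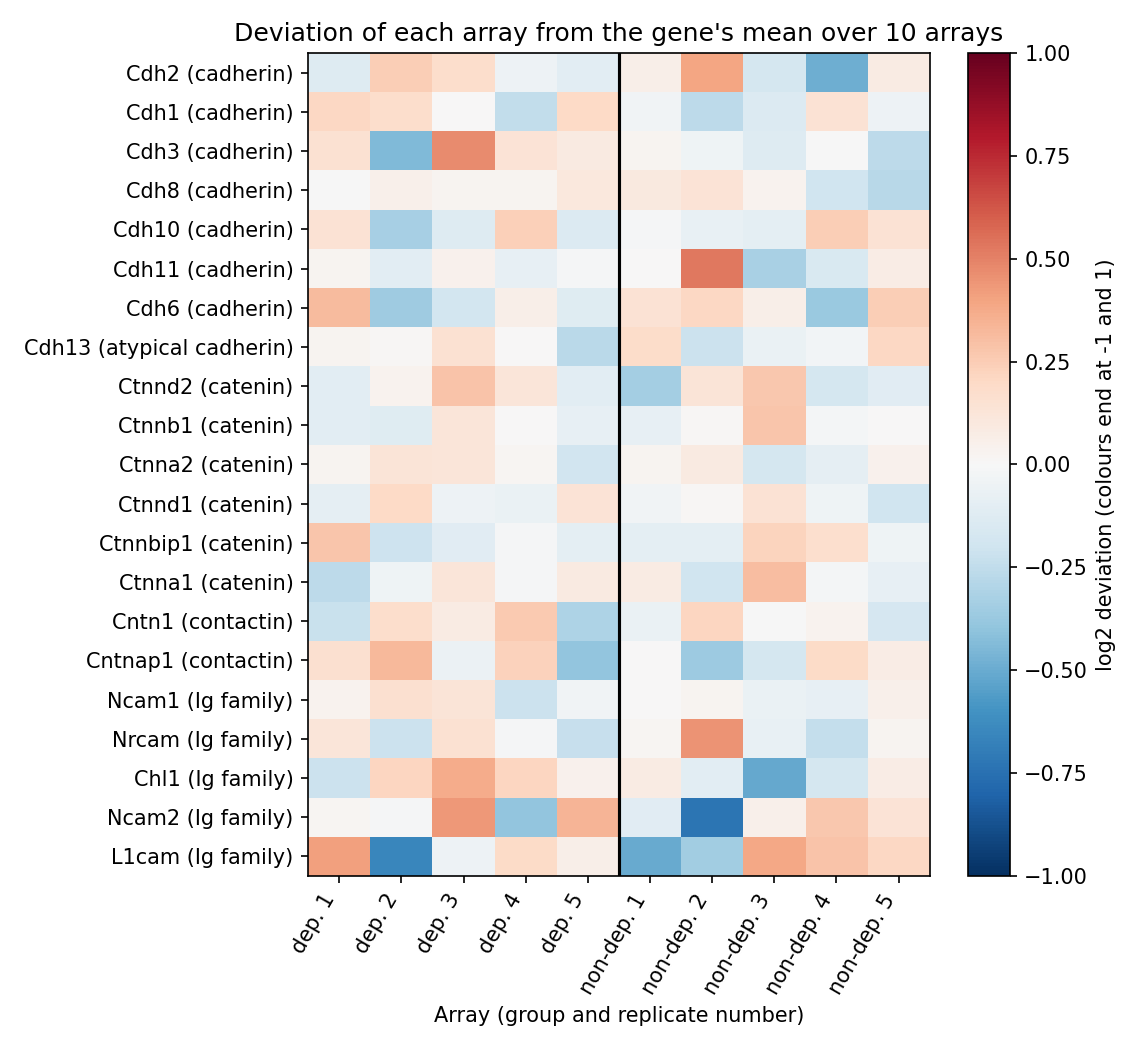
Deviation of each array from a gene's own mean over 10 arrays (log2, colour; red above and blue below) for the 21 tested adhesion genes, with deprived arrays left of the black line and non-deprived arrays right of it. Colours change from array to array within each group, and the 2 darkest cells belong to the dim genes Ncam2 and L1cam.

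The median deviation of the 21 genes from their own means was 0.12 in deprived replicate 3, the highest, and -0.083 in deprived replicate 5, the lowest, both of the same group. Deprived replicate 3 was the highest array for 4 genes and the lowest for 0, whereas deprived replicate 5 was the highest for 0 and the lowest for 4. The 5 non-deprived arrays lay between -0.064 and 0.042.

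Partner genes of adhesion were read from a list of cadherin complex and desmosome genes, beta-catenin signalling and other adhesion molecules. It also held partners of neurexins, neuroligins, contactins, L1 and Ncam, and a shedding group with Adam, Mmp, Timp and presenilin complex genes. Of 130 measured partners, 99 were tested. At an adjusted p under 0.05 in limma 0 passed; at an unadjusted p under 0.05, 2 were higher (2.02%) and 4 lower (4.04%), beside 2.43% and 2.36% of all tested probe sets. Their median difference was -0.015, with a sign that turned without deprived replicate 2 (0.005), deprived replicate 4 (0.0092) or non-deprived replicate 2 (0.0046), and the groups of arrays overlapped for all 99. Ptprd, a receptor phosphatase of the presynaptic membrane that binds adhesion partners across the cleft, had the smallest p (0.00459 unadjusted, 0.992 adjusted in limma). It gave 2101, 1877, 2414, 1637 and 1937 in deprived and 2171, 2485, 2842, 2571 and 2656 in non-deprived cortex, where 4 of 5 deprived arrays lay below all non-deprived ones, with a difference of -0.36 ± 0.11 (SE). A second tested probe set of Ptprd gave -0.10 ± 0.12 (SE). For Itga7, another partner gene, the brightest probe set gave 0.21 ± 0.14 (SE). A dimmer tested one gave -0.72 ± 0.29 (SE), with an unadjusted p of 0.0256 in limma. The counts above therefore depend on which probe set stands for a gene. The receptor phosphatase Ptpru had -0.25 ± 0.11 (SE) and Msn, moesin, which ties membrane proteins to actin, -0.27 ± 0.12 (SE). Estimates lay above 0 for 5 of the 20 other immunoglobulin and synaptic adhesion genes, where Ptprd and Ptpru stood, with a median of -0.040. They lay above 0 for 11 of the 20 contactin, L1 and Ncam partners, where Msn stood. Over all tested probe sets 52.0% lay above 0. Among the 20 other immunoglobulin and synaptic adhesion genes, Itgb1, Itgb5 and Itga3, like Itga7, had another tested probe set of opposite sign. From the brightest probe set and the other, Itgb1 gave -0.21 and 0.13, Itgb5 -0.085 and 0.21, and Itga3 0.21 and -0.29. The count above 0 in that group therefore also depends on the probe set chosen.

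In beta-catenin signalling the Wnt receptors Fzd7 and Fzd8 had differences of 0.44 ± 0.19 (SE) and 0.31 ± 0.13 (SE). The ligand Wnt4 had one of -0.47 ± 0.21 (SE), on signals of 171 ± 49.3 against 242 ± 57.0 (SD, n = 5 each). Fzd7 gave 162 ± 30.5 against 116 ± 27.8 (SD, n = 5 each), with its non-deprived mean at the filter's cut of about 115. Its place among the tested genes, and so among the 2 higher partners, rests on its deprived arrays. The 25 tested genes of beta-catenin signalling had 13 estimates above and 12 below 0. In the other groups, the smallest p belonged to Celsr2, a cadherin of planar polarity, at 0.18 ± 0.18 (SE) in the cadherin complex and desmosome group (3 of 10 above 0). It belonged to Gphn, gephyrin, which binds neuroligin and inhibitory receptors, at -0.17 ± 0.11 (SE) among neurexin and neuroligin partners (5 of 14 above 0). In the shedding group, whose genes are not all proteases, it belonged to Adam23 at 0.24 ± 0.13 (SE) (6 of 10 above 0). None of these 3 had an unadjusted p under 0.05 in limma.

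**Figure D5:**
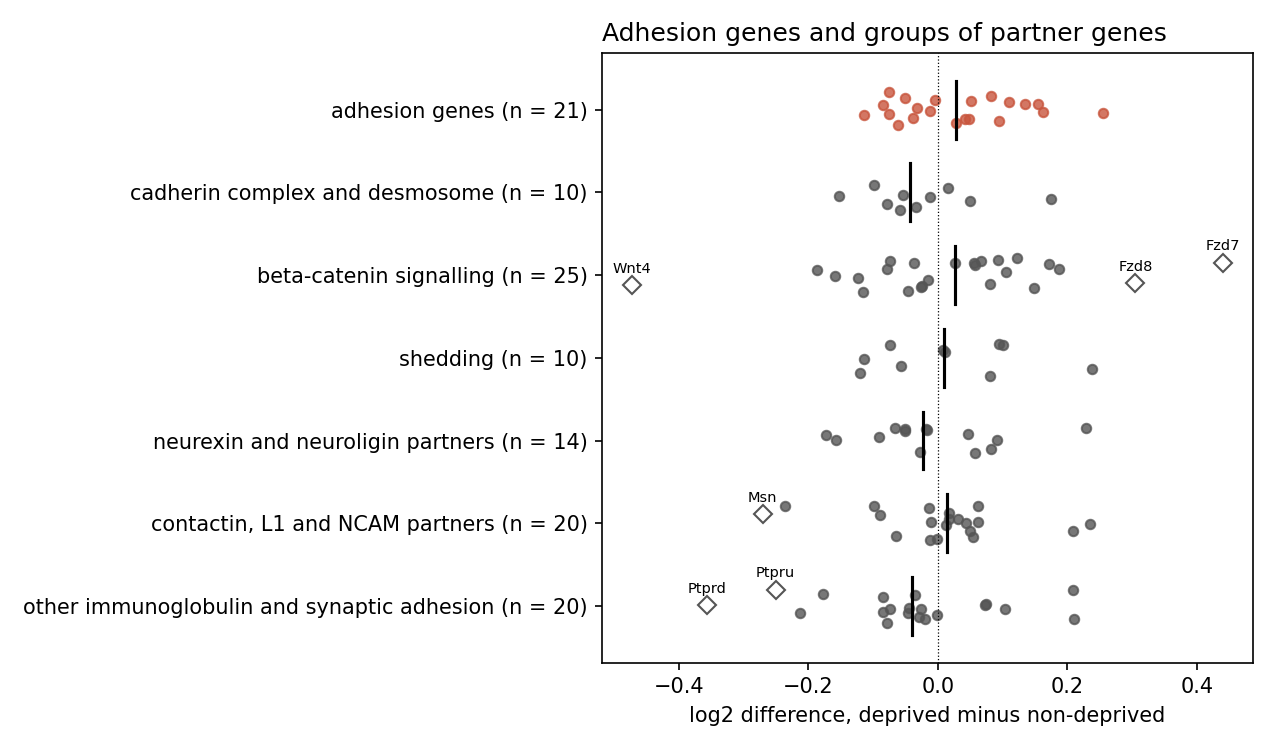
Log2 difference (deprived minus non-deprived) of the 21 tested adhesion genes and of 99 tested partner genes in 6 groups, 1 point per gene and a black bar at each median. Open diamonds mark the 6 partner genes with an unadjusted p under 0.05 in limma; no adhesion gene is so marked, and the medians lie between -0.043 and 0.028.

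Array medians lay between 191 and 209. Summed marker signals overlapped between the groups for each of 9 lists of neurons, glia, vessels, meninges, choroid plexus, blood and neighbouring regions. Of the measured markers in these lists, 0 had a mean under 16. The 4 measured choroid plexus markers were dim, so their overlap says little. Their sums were 118 to 317 in deprived and 100 to 297 in non-deprived arrays. Meningeal markers, 8 of 8 measured, summed to 10291 to 17349 in deprived and 9592 to 12987 in non-deprived arrays, with the highest mean signals for Ptgds and Igf2. They had the smallest exact two-sided permutation p of 11 array measures (0.103, 0.803 after Benjamini-Hochberg adjustment; the smallest possible is 0.00794). Neuronal markers, 8 of 8 measured and led by Snap25 and Gria2, summed to 35034 to 38710.4 and 35397 to 37806. The part of tissue makeup in the values of single adhesion genes was not tested.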

How the data were processed

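The 10 arrays are 1-colour Affymetrix oligonucleotide arrays of 12488 probe sets. The deposited values are MAS5 signal intensities on a linear scale, per the submitters' processing notes; the version of MAS5 and its target level are not given in the sources used. The trimmed mean of every array (2% cut at each end) was 500 after rounding, so arrays were scaled before deposit. Groups and replicate numbers came from the sample titles.

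Leaving out 66 control probe sets left 12422, of which 10833 had 1 gene symbol (10817 updated through Entrez ID). Signals were converted to log2(value + 16), which understates changes of dim probe sets. Probe sets with a mean under the 40th percentile were left out, and limma 3.58.1 (R 4.3.3; lmFit, eBayes with trend) was fitted to the 7453 others, with Benjamini-Hochberg adjustment over all of them and no covariate. Array measures had exact two-sided permutation tests over 252 assignments. The fit was tested on simulated data. Arrays have no read depth; precision is limited by their number.

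The genes, partner lists, markers and alternatives were chosen with earlier results of these data known. Named are all tested adhesion genes, partners with an unadjusted p under 0.05 or the smallest p of their group, and bright markers. Cdh4 and Itga7 were singled out after their values were seen. Alternatives were other pseudocounts, filters, scalings, probe set rules, variance moderation, a replicate block and leaving out each array.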

Additional observations from a re-analysis of the deposited data

Results flagged for a closer look

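Ctnnb1, beta-catenin, had 1 array far from the others of its group. Non-deprived replicate 3 had a signal of 7817, whereas the other 4 non-deprived arrays lay between 6106 and 6500. Replicate 3 was also the highest of the deprived arrays, at 7019. The gap to the nearest array was 0.77 of the group's range, beside a critical value of 0.71 in Dixon's test. It was the only 1 past that value among 42 groups of 5 arrays (21 genes in 2 groups), where chance alone puts about 5% past it.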

How the results depend on the processing

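The count of 0 adhesion genes at an adjusted p under 0.05 held in all 19 alternative settings, where the smallest adjusted p of an adhesion gene ran from 0.798 (replicate block) to 1.00. At an unadjusted p under 0.05 the count was 0, except for 0 to 1 when single arrays were left out: Chl1 without deprived replicate 1 and without non-deprived replicate 1, and Cdh3 without deprived replicate 2, where alone the groups also did not overlap (0 to 1 genes). Of the 21 genes, 12 kept the sign of their estimate in every setting that tested them and 9 did not (7 of the 21 were not tested with the filter at the 60th percentile), among them Cntn1 and L1cam with 4 changes each. The median difference of adhesion genes ran from -0.0032 to 0.042 without single arrays. Median scaling shifted all genes alike, taking this median to -0.0037, that of partner genes to -0.047 and that of all tested probe sets to -0.025.

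Over all tested probe sets, limma called 0 at an adjusted p under 0.05 (357 at an unadjusted p under 0.05), 2 with a pseudocount of 64, 2 when the filter stood at the 60th percentile, 6 with the replicate block, and 0 to 5 without single arrays (5 without non-deprived replicate 1, 1 without deprived replicate 4). None was an adhesion gene. Partner genes at an unadjusted p under 0.05 numbered 6, but 3 with the filter at the 60th percentile, which tested 76. Without single arrays they numbered 2 to 6 (2 without deprived replicate 2 or non-deprived replicate 1, 3 without deprived replicate 1 or non-deprived replicate 3). The shares of all tested probe sets at that p in these settings are not given here. No change in these counts can therefore be read as particular to adhesion or partner genes. Same-numbered arrays of the 2 groups had deviations correlated at r from 0.022 to 0.23, over 0.1 in 4 of 5 pairs, and 4 of 5 deprived arrays correlated best with their own number. Every operated animal has a hemisphere of both kinds, so same-numbered arrays may share animals, and these correlations are a hint that they do. The titles give only the number and 1 pair was short of 0.1, so the main comparison has no block. Its standard errors, intervals and p-values therefore take no account of such a pairing. With the replicate block 0 adhesion genes had an unadjusted p under 0.05 in limma, and that of Chl1 was 0.114. Where a value changed, the cause was not tested. Arrays limit what can be seen: 1 of 21 intervals reached past 1.5-fold.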
